A study of Homo sapiens with 4 samples.

Results

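The genes described here encode the DNA replication machinery: 44 genes whose products mark and license origins, unwind DNA, synthesize the new strands and protect the fork, of 18132 genes measured. They were taken from a list of symbols that was made with earlier results of these data known. The symbols were matched through the annotation of the array's probe sets. Each gene was read through the brightest probe set that belonged to it alone. All 44 had such a probe set. The cells were UM1, an established human line from a tongue squamous cell carcinoma (TSCC), kept for 7 days in medium with 5.6 mM glucose (normal glucose, called low glucose in the labels) or 16.7 mM glucose (high glucose), with no other difference between the groups named. Each group had 2 arrays, 4 in all, so the comparison asks how the RNA of the replication genes differed between the glucose concentrations in this 1 line. The labels call the arrays biological replicates, but nothing in the sources says that they came from separate cultures, so the p-values measure only the spread between these arrays, which may be technical. RNA was pooled from whole cultures, and fewer cells that express a gene and less RNA per cell cannot be told apart.

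DNA replication begins when the origin recognition complex (ORC) binds DNA and, with CDC6 and CDT1, loads the ring-shaped MCM2-7 helicase. In S phase CDC45 and the GINS complex join the ring and switch it on, DNA polymerase alpha with primase lays short primers, and polymerases epsilon and delta extend them on the leading and lagging strands while held by the PCNA clamp. Replication protein A (RPA) coats the exposed single strands, and the primers of Okazaki fragments on the lagging strand are then removed and the nicks sealed. Many of these genes are known targets of E2F transcription factors, which switch them on as cells pass from G1 into S phase, and their high expression is a familiar mark of dividing tumour cells.

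Because E2F sites are a known feature of replication gene promoters, the sequence around the RefSeq start sites (GRCh38.p14) was searched from 250 bases before to 50 bases after each start for 4 words of the E2F motif, TTTGGCGC, TTTCGCGC, TTTCCCGC and TTTGCCGC, on both strands. An entry was found for 37 of the 44 genes. Of their 46 promoter windows, 21 held a word (45.7%), each in a different gene, against 3.31% of all 35116 windows. A match is a description of the letters and says nothing of binding in these cells. Stretches of 190 bases, from 160 before to 30 after the start, are shown 5′ to 3′ on the strand of the gene, with the E2F words in capitals. DTL, MCM6, POLE2, RFC3 and CDC6 are shown because they rose and held words, PRIM1 because it rose and held none, TOPBP1 because it held a word and did not pass the test, and ORC2 because it fell and held none.
DTL, chr1:212035588-212035777, + strand: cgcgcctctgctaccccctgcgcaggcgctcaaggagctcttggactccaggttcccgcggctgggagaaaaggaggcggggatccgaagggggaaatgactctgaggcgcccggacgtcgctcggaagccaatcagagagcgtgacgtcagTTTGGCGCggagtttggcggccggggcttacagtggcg
CDC6, chr17:40287719-40287908, + strand: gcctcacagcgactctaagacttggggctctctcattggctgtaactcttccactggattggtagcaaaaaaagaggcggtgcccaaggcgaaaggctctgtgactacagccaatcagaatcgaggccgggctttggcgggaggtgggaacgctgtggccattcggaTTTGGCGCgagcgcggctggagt
MCM6, chr2:135876414-135876603, - strand: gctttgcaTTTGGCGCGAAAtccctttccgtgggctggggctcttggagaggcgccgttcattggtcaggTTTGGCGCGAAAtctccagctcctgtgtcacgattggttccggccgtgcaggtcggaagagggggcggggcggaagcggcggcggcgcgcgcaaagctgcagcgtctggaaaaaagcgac
POLE2, chr14:49688185-49688374, - strand: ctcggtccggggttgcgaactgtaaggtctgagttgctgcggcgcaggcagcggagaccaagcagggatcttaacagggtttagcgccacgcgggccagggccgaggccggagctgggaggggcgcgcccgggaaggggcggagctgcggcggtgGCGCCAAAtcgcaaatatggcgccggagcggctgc
RFC3, chr13:33817989-33818178, + strand: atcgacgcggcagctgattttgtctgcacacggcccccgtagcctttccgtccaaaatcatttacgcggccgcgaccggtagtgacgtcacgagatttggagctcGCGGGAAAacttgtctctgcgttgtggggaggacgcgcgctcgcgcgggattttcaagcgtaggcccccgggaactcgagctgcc
PRIM1, chr12:56752294-56752483, - strand: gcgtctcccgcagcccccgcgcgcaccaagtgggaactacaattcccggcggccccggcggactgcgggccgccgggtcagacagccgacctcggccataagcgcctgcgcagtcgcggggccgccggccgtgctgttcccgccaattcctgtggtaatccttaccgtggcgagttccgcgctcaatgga
TOPBP1, chr3:133661912-133662101, - strand: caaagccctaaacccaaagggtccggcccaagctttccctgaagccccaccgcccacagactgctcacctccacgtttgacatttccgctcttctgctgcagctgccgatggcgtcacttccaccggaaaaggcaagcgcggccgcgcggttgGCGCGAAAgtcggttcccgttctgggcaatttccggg
ORC2, chr2:200963631-200963820, - strand: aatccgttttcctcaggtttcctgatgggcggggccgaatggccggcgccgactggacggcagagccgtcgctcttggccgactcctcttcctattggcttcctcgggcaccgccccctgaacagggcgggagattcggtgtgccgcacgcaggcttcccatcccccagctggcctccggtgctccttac

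In DTL the word began 8 bases upstream of the start, at position -8, and in POLE2 at -5 on the opposite strand. In MCM6 the capitals held 4 matches in 2 pairs. In each pair TTTGGCGC overlapped GCGCGAAA, which is the word TTTCGCGC read on the opposite strand. The 7 genes without an entry were MCM4, MCM5, GINS4, POLD3, RPA2, RPA3 and DNA2. The CCAAT box (letters CCAAT, either strand) was found in 58.7% of the windows of the replication genes and in 34.6% of all windows. The cell cycle homology region, searched as TTTGAA and TTCGAA on either strand, was found in 2.17% of them, in MCM6 alone, and in 16.4% of all windows. The promoters with an E2F word did not hold the risen genes alone: 19 of the 21 genes with a word were higher in high glucose and 13 of the 16 without one, with median log2 differences of 1.47 and 1.26. The ranges overlapped, from 0.11 to 3.85 with a word and from -0.50 to 2.81 without.

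Expression of most of the 44 listed replication genes was higher in high glucose. Because the list was made with earlier results of these data known, its counts beside the shares of all genes are a description. They are not an independent test of the group. Of 10 further subunits of the same complexes, outside the list and described below, 1 rose, 3 fell and 6 did not pass. Of the 44 genes, 39 were higher, 2 (ORC2 and RFC5) were lower and 3 (TOPBP1, PRIM2 and TIPIN) did not pass the test, which was limma on the log2 values, with p-values adjusted over all 18132 genes by the Benjamini-Hochberg method and called under 0.05. Over all genes the same test called 15.5% higher and 22.2% lower. The median log2 difference of the 44 genes was 1.33, or 2.51-fold, against -0.03 over all genes. A log2 difference of 1 is a doubling. Both high glucose arrays lay above both normal glucose arrays in 42 of the 44 genes and below them in the other 2, where 27.5% of all genes had both high glucose arrays above. The rise was more than 2-fold in 31 genes, against 6.38% of all genes, and more than 4-fold in 9, against 440 of all 18132. The study's methods name a fold above 1.5 or below 0.67 and a p under 0.05, read here as unadjusted. With p from limma, 37 of the 44 were upregulated by these thresholds, against 10.6% of all genes. None lay below 0.67 fold, where 2433 of all 18132 genes were downregulated by the same thresholds. With p from the methods' t-test, 36 of the 44 were upregulated. The methods' t-test, adjusted over all genes, called 24 of the 44 higher and 0 lower.

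**Figure D1:**
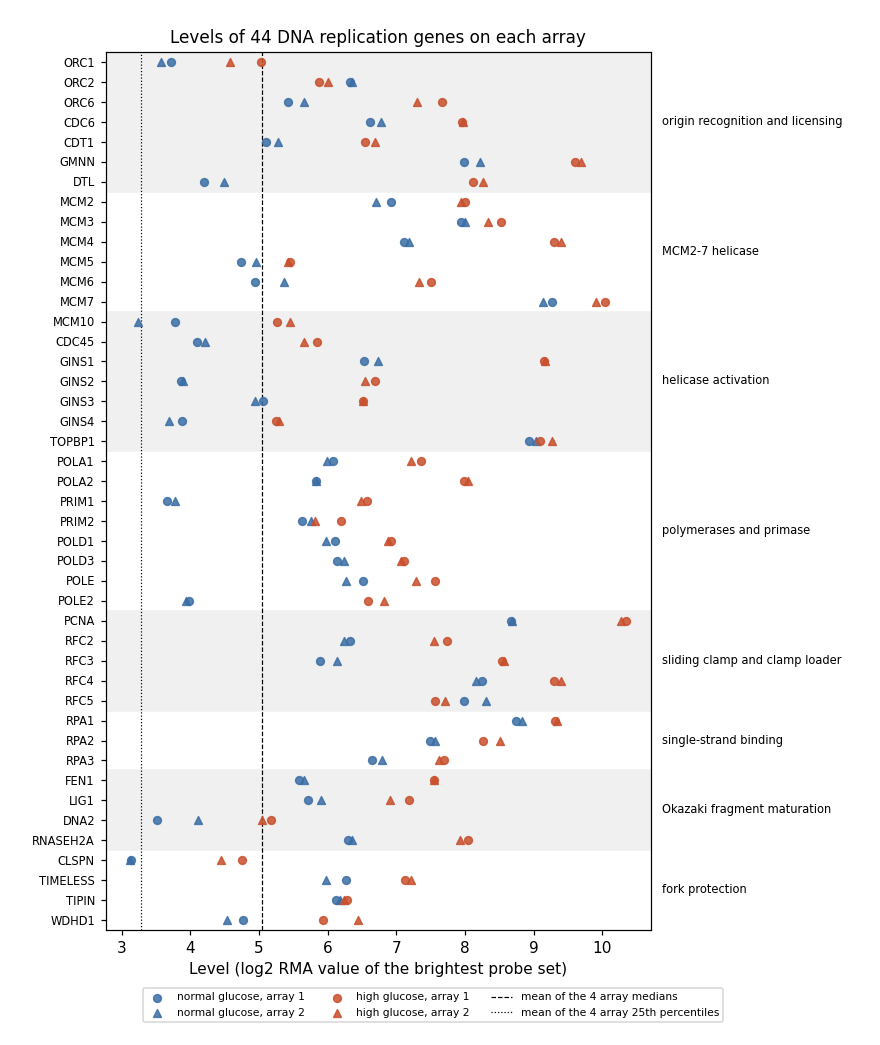
Level of each of the 44 replication genes on each of the 4 arrays (x axis, log2 RMA value of the brightest probe set), with genes in rows grouped by role. Blue marks are the normal glucose arrays and red marks the high glucose arrays. Red lies to the right of blue in 42 rows and to the left in 2, ORC2 and RFC5. Levels of different genes come from different probes and are not comparable.

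On single arrays, the median over the 44 genes was 6.09 and 5.99 in normal glucose and 7.53 and 7.30 in high glucose, so the groups did not overlap. The arrays of a group differed by far less than the groups did. An exact permutation test of 2 arrays against 2 cannot give a two-sided p below 0.333, so the calls below rest on limma, which shares the estimate of the spread across genes. Errors given with ± are standard errors of the limma fit with 2 arrays in each group.

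Across all probe sets, the arrays correlated at 0.997 and 0.996 within groups and at 0.946 to 0.947 between them, and the array medians lay between 5.01 and 5.07. The signal of the 3′ over the 5′ probe sets of ACTB, a reading of RNA integrity, as a log2 difference, was 0.71 and 0.74 on the normal glucose arrays but 0.35 and 0.42 on the high glucose arrays, and that of GAPDH was 0.24 and 0.13 against 0.08 and 0.12. Of 7 squamous keratinocyte markers measured of 10 listed, 6 were higher in high glucose and 1, EPCAM, was lower. EPCAM, a defining epithelial marker, read 11.03 and 11.28, then 7.75 and 8.22, a log2 difference of -3.17. The defining basal keratins KRT5 (9.98 and 9.89, then 13.89 and 13.92) and KRT14 (9.83 and 9.46, then 13.70 and 13.76) were present on every array, and the mean over the list was 9.62 and 9.57, then 11.23 and 11.30. Of 10 fibroblast markers, 4 were higher and 6 did not pass, with list means of 3.76 and 3.63, then 5.41 and 5.33. COL3A1 rose by 7.03 on the log2 scale, the largest rise of all genes tested, FAP by 5.97 and COL1A1 by 2.55. COL1A2, under the 25th percentile in normal glucose, rose by at least 1.6-fold. The fibroblast markers LUM, PDGFRA, THY1 and POSTN stayed at or under the 25th percentile of every array. Of 4 leukocyte markers measured of 5 listed and 4 endothelial markers none passed, and the means lay between 4.26 and 4.50 and between 4.44 and 4.60. Of the defining genes, PTPRC read between 2.52 and 2.83, CDH5 between 3.33 and 3.54 and PECAM1 between 4.13 and 4.42, beside array 25th percentiles of 3.26 to 3.32. The brightest of the other markers were CD68 (6.62 to 6.85) and VWF (5.07 to 5.39). The part of RNA integrity and of these marker changes in the replication result was not tested.

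Among the 7 genes of origin recognition and licensing, 6 rose and 1 fell, with a median log2 difference of 1.42. DTL showed the greatest rise of all 44 genes and ranked 95th among the 18132. It encodes the substrate receptor of the CRL4 ubiquitin ligase, which removes CDT1 during S phase so that origins fire only once. DTL read 4.20 and 4.49 on the normal glucose arrays and 8.12 and 8.26 on the high glucose arrays. The difference was 3.85 ± 0.13, or 14.4-fold (limma adjusted p = 1.397e-05). Both normal glucose arrays lay below the array median for this probe set and both high glucose arrays above it. CDT1, the loader of the MCM ring and the protein that DTL targets, read 5.11 and 5.28, then 6.54 and 6.70, a rise of 2.68-fold. GMNN encodes geminin, the inhibitor that binds CDT1 after origins have fired. It read 7.99 and 8.21, then 9.61 and 9.68, a rise of 2.92-fold. The loader and both of its negative regulators were thus all higher in high glucose, without overlap of the groups.

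CDC6, the ATPase that loads the MCM ring together with ORC, read 6.62 and 6.78 in normal glucose and 7.95 and 7.97 in high glucose, or 2.40-fold. Of the 3 ORC subunits among the 44, ORC6 rose most. It read 5.42 and 5.66, then 7.66 and 7.31, a difference of 1.94 ± 0.15 (limma adjusted p = 0.000263). ORC1, the large subunit that is present mainly in G1, read 3.73 and 3.57, then 5.03 and 4.57, a rise of 2.22-fold, with all 4 arrays under their array median. ORC2, a core subunit, went the other way. It read 6.32 and 6.35 in normal glucose and 5.87 and 6.01 in high glucose, a log2 difference of -0.40 ± 0.09, lower by a factor of 1.32 (limma adjusted p = 0.0185). The groups did not overlap, but the ORC2 call was lost in 3 of the 4 fits that left out 1 array (without replicate 1 or 2 of normal glucose, or replicate 1 of high glucose), with adjusted p up to 0.0999.

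All 6 genes of the MCM2-7 ring, the motor of the replicative helicase, were higher in high glucose, but not by like amounts. MCM6 and MCM4 rose most. MCM6 read 4.94 and 5.36, then 7.50 and 7.33, a difference of 2.27 with a 95% interval of 1.88 to 2.66, or 4.81-fold. MCM4 read 7.11 and 7.18, then 9.30 and 9.40, a difference of 2.20 with an interval of 1.98 to 2.43, or 4.61-fold. MCM2 followed with 6.92 and 6.71, then 7.99 and 7.94, or 2.23-fold. By the brightest probe sets, MCM7, MCM5 and MCM3 rose by 1.70, 1.51 and 1.38-fold. On these probe sets the intervals of MCM7 (0.52 to 1.01), MCM5 (0.33 to 0.85) and MCM3 (0.21 to 0.71) lay apart from those of MCM4 and MCM6. Each gene has its own probes, and the difference between genes was not tested. MCM3 read 7.943 and 7.996, then 8.53 and 8.33, and passed with an adjusted p of 0.0150 by limma. MCM5 read 4.74 and 4.96, then 5.46 and 5.42 (limma adjusted p = 0.00672). By these probe sets the MCM3 call was lost in 3 of the 4 fits that left out 1 array (adjusted p up to 0.0965, passing only without replicate 2 of high glucose) and the MCM5 call in 2 (up to 0.0616, without either high glucose array). The brightest MCM3 probe set showed the smallest rise of its 4. The others rose by 1.81, 2.01 and 1.59-fold (limma adjusted p = 0.00111, 0.000769 and 0.00384), within or near the range of the 4 MCM7 probe sets, 1.67 to 2.34-fold, and the median over probe sets gave 0.84 for MCM3 (limma adjusted p = 0.000617). MCM5 had 1 probe set. MCM6 had 3, and its dimmer ones rose by 1.83 and 0.64 on the log2 scale. The last, under the median of every array, had an interval of 0.32 to 0.96, which overlapped those of MCM7, MCM5 and MCM3. The median over the MCM6 probe sets gave 1.76 (limma adjusted p = 0.00019).

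Of the 7 genes that turn the loaded ring into a moving helicase, 6 rose, with the highest median of the roles, 1.60. The 4 genes of the GINS complex, which binds the MCM ring and ties it to polymerase epsilon, all rose. GINS2 read 3.86 and 3.89, then 6.68 and 6.54, a difference of 2.74 ± 0.09, or 6.66-fold (limma adjusted p = 1.534e-05). GINS1 read 6.53 and 6.74, then 9.15 and 9.17, or 5.76-fold. For both, the arrays of a group lay close together and the groups far apart. By the brightest probe sets, GINS3 and GINS4 rose by 2.86 and 2.79-fold. Their intervals (1.30 to 1.74 and 1.23 to 1.73) lay below those of GINS1 (2.27 to 2.78) and GINS2 (2.50 to 2.97). The dimmer GINS1 probe sets gave log2 differences of 2.52 and 1.80, and the interval of the latter overlapped those of GINS3 and GINS4. The median over the GINS1 probe sets gave 2.09 (limma adjusted p = 0.000139). Differences between these genes were not tested. CDC45, the partner of GINS in the active helicase, read 4.10 and 4.21, then 5.85 and 5.66, or 3.03-fold. MCM10, which is needed to activate the assembled helicase, read 3.78 and 3.24, then 5.27 and 5.45. Its normal glucose arrays differed from each other by more than those of most members, and its rise of 1.85 carried an error of 0.19 (3.61-fold, limma adjusted p = 0.000706). TOPBP1, the scaffold that helps to bring GINS and CDC45 to the ring, did not pass. It read 8.94 and 9.04, then 9.09 and 9.27, with a difference of 0.20 and an interval from -0.06 to 0.45 (limma adjusted p = 0.199).

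**Figure D2:**
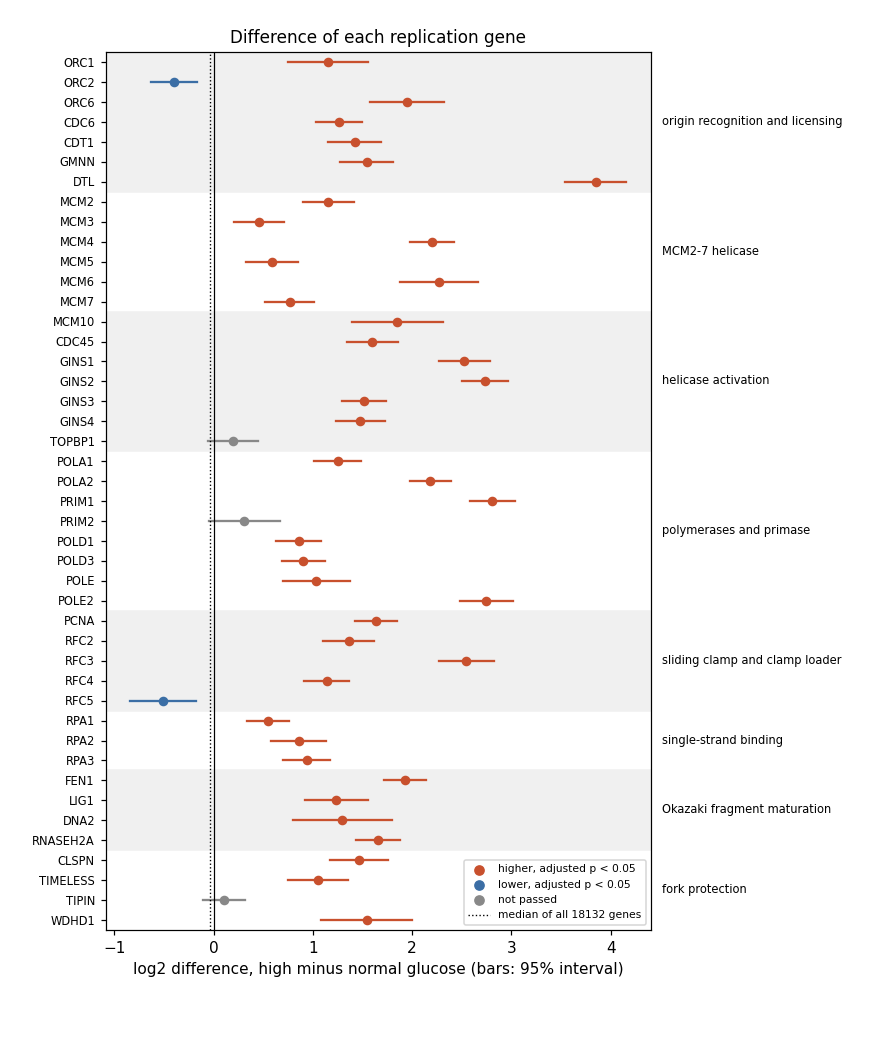
Log2 difference, high minus normal glucose, of each of the 44 genes (x axis), with points for the limma estimate and bars for its 95% interval, grouped by role. Red marks the 39 genes that were higher, blue the 2 that were lower and grey the 3 that did not pass. The dotted line is the median over all 18132 genes, -0.03, and DTL stands farthest to the right at 3.85.

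Of the 8 polymerase and primase genes, 7 rose. PRIM1, the catalytic subunit of primase, which makes the RNA primers, was second only to DTL among the 44 genes. It read 3.67 and 3.77 in normal glucose and 6.57 and 6.49 in high glucose, a difference of 2.81 ± 0.09, or 7.00-fold (limma adjusted p = 1.397e-05). Its promoter, shown above, held none of the E2F words. PRIM2, the regulatory subunit that works with PRIM1, did not pass by its brightest probe set. PRIM2 read 5.63 and 5.76, then 6.20 and 5.81, so replicate 2 of high glucose lay just above the higher normal glucose array. The difference was 0.31 with an interval from -0.05 to 0.67 (limma adjusted p = 0.159). The median over its 2 probe sets gave 0.31 and passed (limma adjusted p = 0.0422), though neither passed alone. The other subunits of this complex rose: POLA2, the accessory subunit of polymerase alpha, read 5.83 on both normal glucose arrays and 7.98 and 8.04 on the high glucose arrays (4.54-fold), and POLA1, the catalytic subunit, read 6.077 and 5.997, then 7.35 and 7.22 (2.38-fold).

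POLE2, the second subunit of polymerase epsilon, rose more than its catalytic partner. POLE2 read 3.98 and 3.94, then 6.59 and 6.82, a difference of 2.75 with an interval of 2.48 to 3.01, or 6.72-fold. POLE, the catalytic subunit that copies the leading strand, read 6.52 and 6.26, then 7.56 and 7.29, a difference of 1.04 with an interval of 0.70 to 1.37, or 2.05-fold. The polymerase delta genes had smaller estimates, but the intervals of POLD1 (0.63 to 1.09) and POLD3 (0.69 to 1.12) overlapped that of POLE. The difference between genes was not tested. POLD1, the catalytic subunit, read 6.11 and 5.98, then 6.92 and 6.88, or 1.81-fold. POLD3, an accessory subunit, read 6.14 and 6.24, then 7.11 and 7.07, or 1.87-fold. In each of these genes the groups did not overlap.

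PCNA, the ring that keeps polymerases on DNA, read 8.67 and 8.68 in normal glucose and 10.35 and 10.28 in high glucose, a difference of 1.64 ± 0.09, or 3.11-fold (limma adjusted p = 5.958e-05). Of the 4 small subunits of replication factor C (RFC), which opens PCNA and sets it on DNA, 3 rose and RFC5 fell by the brightest probe set. RFC3 read 5.88 and 6.14, then 8.55 and 8.57, or 5.84-fold, a log2 difference of 2.55. Its dimmer probe sets gave 2.97, 0.71 and 0.13. The last did not pass and was under the 25th percentile on every array. The median over the RFC3 probe sets gave 1.84 (limma adjusted p = 5.211e-05). RFC2 read 6.33 and 6.24, then 7.74 and 7.55, or 2.57-fold, and RFC4 read 8.25 and 8.16, then 9.29 and 9.40, or 2.20-fold. The RFC4 call was lost with the median over its 3 probe sets (0.36, limma adjusted p = 0.148), of which the other 2 were under the 25th percentile on every array. The brightest RFC5 probe set read 7.98 and 8.31, then 7.56 and 7.72, a difference of -0.50 ± 0.13 (limma adjusted p = 0.0304). This RFC5 call was lost in the 3 fits that left out replicate 2 of normal glucose or either high glucose array (adjusted p up to 0.178), and the other RFC5 probe sets, described below, went the other way.

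The 3 RPA genes, which encode the subunits of the single-strand binding complex, all rose, by the smallest median of the roles, 0.86. RPA1 read 8.74 and 8.83, then 9.32 and 9.34, or 1.46-fold. RPA2 read 7.49 and 7.57, then 8.26 and 8.51, or 1.81-fold, and RPA3 read 6.65 and 6.79, then 7.70 and 7.62, or 1.92-fold. None of the 3 reached 2-fold, and by the brightest probe sets their estimates spanned 0.39 on the log2 scale, with overlapping intervals. The other RPA1 probe set gave 0.15 and did not pass. The other RPA2 probe sets gave 0.35, which passed, and 0.21, which did not. The medians over probe sets were 0.35 for RPA1, 0.39 for RPA2 and 0.94 for RPA3.

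The 4 genes that finish Okazaki fragments all rose by more than 2-fold by their brightest probe sets. FEN1, the nuclease that cuts displaced primer flaps, read 5.59 and 5.65, then 7.55 on both high glucose arrays, a difference of 1.93 ± 0.08, or 3.81-fold (limma adjusted p = 3.344e-05). RNASEH2A, the catalytic subunit of the ribonuclease that removes ribonucleotides from DNA, read 6.30 and 6.36, then 8.05 and 7.93, or 3.16-fold. LIG1, the ligase that seals the fragments, read 5.71 and 5.90, then 7.18 and 6.91, or 2.35-fold. All 6 LIG1 probe sets rose, by 1.31 to 2.35-fold, and their median gave a log2 difference of 0.89 (limma adjusted p = 0.0007). DNA2, a nuclease and helicase for long flaps, had the largest error of the 44 genes. It read 3.51 and 4.12, then 5.18 and 5.04, a difference of 1.30 ± 0.20 (limma adjusted p = 0.00383). The DNA2 groups did not overlap, and the call was lost only without replicate 1 of high glucose (adjusted p = 0.0562).

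Of the 4 genes that steady the fork, 3 rose. CLSPN encodes claspin, the adaptor that carries the signal of stalled forks to the checkpoint kinase CHK1. It read 3.14 and 3.13 in normal glucose, under the 25th percentile of both arrays, and 4.75 and 4.45 in high glucose, so the rise has only a lower bound, at least 2.49-fold against the 25th percentile (limma adjusted p = 0.000324). WDHD1, which links the helicase to polymerase alpha, read 4.77 and 4.53, then 5.94 and 6.45, or 2.91-fold. TIMELESS and TIPIN form 1 complex that travels with the fork. TIMELESS read 6.27 and 5.98, then 7.12 and 7.22, a difference of 1.05 with an interval of 0.75 to 1.35. TIPIN read 6.12 and 6.19, then 6.29 and 6.24, a difference of 0.11 with an interval from -0.10 to 0.32 (limma adjusted p = 0.389). The intervals of these partners did not overlap by the brightest probe sets. The other TIMELESS probe set, which is dimmer, gave 0.16 with an interval from -0.08 to 0.40 and did not pass, and the median over both gave 0.60 (limma adjusted p = 0.00190).

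The complexes of the 44 genes have 10 further subunits, of which 1 rose, 3 fell and 6 missed the threshold, shares near the 15.5% higher and 22.2% lower of all genes. The differences between subunits were not tested. In ORC, with 6 subunits, ORC1 and ORC6 rose, ORC2 and ORC4 fell, and ORC3 (0.29) and ORC5 (-0.14) did not pass. ORC4, a core subunit like ORC2, read 8.37 and 8.31, then 7.78 and 7.94, a log2 difference of -0.48 (limma adjusted p = 0.0106). In polymerase epsilon, POLE and POLE2 rose, the histone-fold subunit POLE3 did not pass (0.09), and its partner POLE4 fell. POLE4 read 8.75 and 8.72, then 7.76 and 7.57, a log2 difference of -1.07, lower by a factor of 2.10 (limma adjusted p = 0.000553). The estimates within this complex spanned 3.82 on the log2 scale, the widest of those examined.

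RFC1, the large subunit of the clamp loader, also fell. It read 8.26 and 8.15, then 7.57 and 7.44, a log2 difference of -0.70 (limma adjusted p = 0.00235), while RFC2, RFC3 and RFC4 rose. In polymerase delta, POLD2 rose by 0.36 (limma adjusted p = 0.0368) and POLD4 did not pass (-0.12). In ribonuclease H2, only the catalytic subunit rose, and RNASEH2B (0.05) and RNASEH2C (-0.18) did not pass. The 44 genes were listed with earlier results of these data known, so their counts do not stand for each whole complex.

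**Figure D3:**
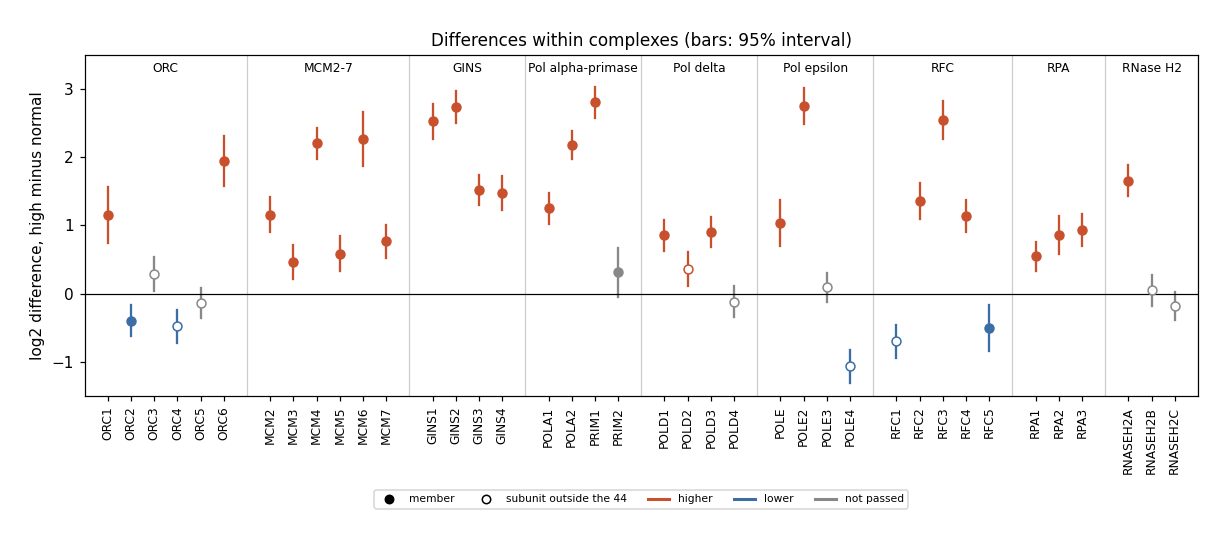
Log2 difference, high minus normal glucose (y axis), of each subunit of 9 replication complexes, with bars for the 95% interval of the limma fit. Filled points belong to the 44 genes and open points are subunits outside them. Red was higher, blue lower and grey did not pass. All points of MCM2-7, GINS, RPA and polymerase alpha with primase lie above 0. ORC, polymerase delta, polymerase epsilon, RFC and ribonuclease H2 hold points on both sides.

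Most genes had further probe sets, which read other parts or transcripts of the gene, and these were tested in a fit over all 44988 probe sets of single genes. The 44 genes had 105 probe sets, of which 86 rose, 3 fell and 16 did not pass. Over all probe sets 15.3% were higher and 20.7% lower. Of the 31 genes with several probe sets, 19 had all of them higher and 7 had some higher and some that did not pass. Of the 16 that did not pass, 4 were at or under the 25th percentile on every array and 8 under the array median. Read as the median over probe sets, CDT1 rose more, by 2.14, and GINS4, RPA2 and RPA1 rose less, by 0.87, 0.39 and 0.35, all still called higher. All 5 probe sets of MCM4 rose, by 2.20 to 2.76. Both probe sets of TOPBP1 (0.20 and 0.18) and the 3 of TIPIN (0.11, 0.16 and 0.02) did not pass. A further probe set that TIPIN shares with RPL9 and related pseudogenes was not used.

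RFC5 was the only gene of the 44 whose probe sets went both ways. Its 3 dimmer probe sets rose, unlike the brightest. They read 6.05 and 5.91, then 6.83 and 6.90 (0.88, limma adjusted p = 0.00109), 5.42 and 5.57, then 6.72 and 6.82 (1.27, limma adjusted p = 0.000319), and 5.12 and 5.19, then 6.07 and 6.08 (0.92, limma adjusted p = 0.000678). Counting RFC5 as higher, since each of these 3 was called higher, gave 40 of the 44 genes. This choice was made after their values were seen, and the direction of RFC5 is not settled by these arrays. The 3 probe sets of ORC2 all lay lower in high glucose (-0.40, -0.63 and -0.40), and 2 of them passed. Their median was -0.63 (limma adjusted p = 0.00298).

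**Figure D4:**
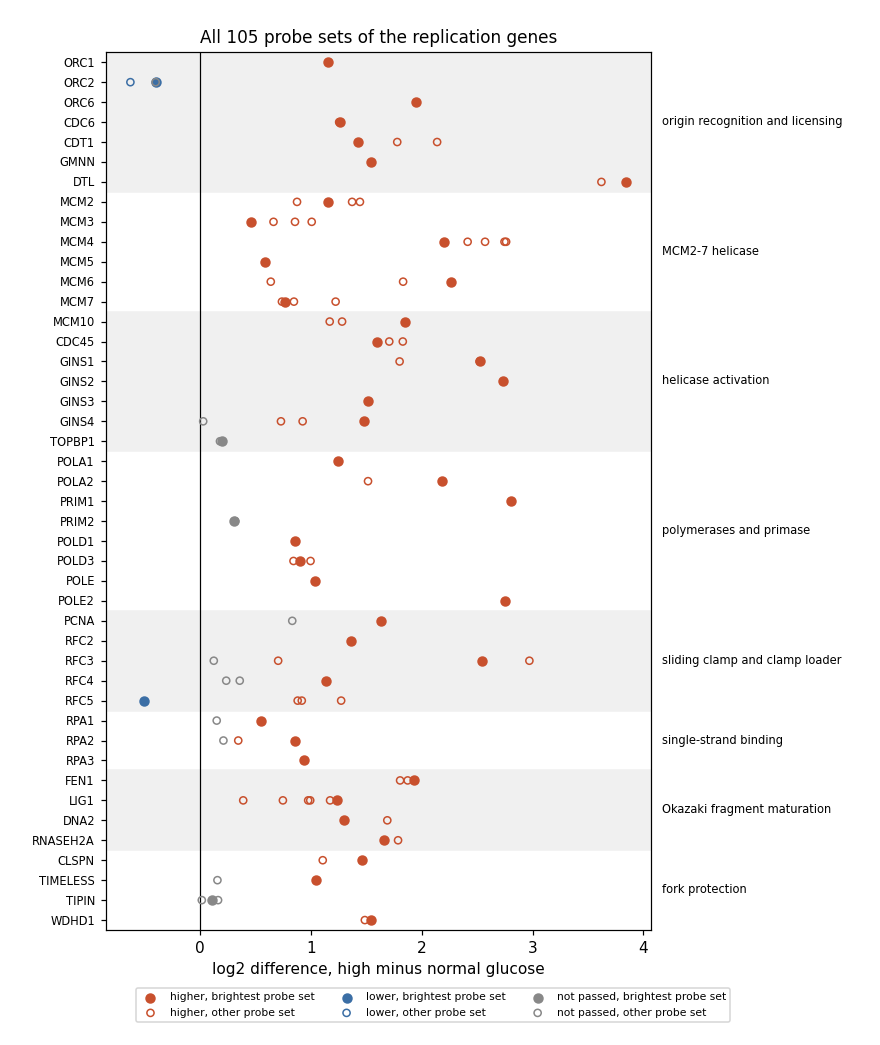
Log2 difference, high minus normal glucose (x axis), of all 105 probe sets of the 44 genes in rows. Filled points are the brightest probe set of a gene and open points the others, with red higher, blue lower and grey not passed at a limma adjusted p of 0.05. RFC5 has its filled point below 0 and its 3 open points above 0.

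A list of 41 other replication factors held the 10 further subunits above and genes that regulate or assist the machinery. Of the 41, 25 were higher, 6 lower and 10 did not pass, with a median log2 difference of 0.56. Over all genes 15.5% were higher and 22.2% lower. CDC7, the kinase that fires licensed origins, read 4.79 and 4.58, then 7.40 and 7.69, or 7.25-fold. Of its activating subunits, DBF4B rose by 4.11-fold and DBF4 by 1.36-fold (limma adjusted p = 0.0472 for DBF4). CCNE2 and CCNA2, cyclins that drive S phase entry and progress, rose by 10.2 and 12.2-fold, and CCNE1 by 1.31-fold (limma adjusted p = 0.022 for CCNE1). TICRR, which helps TOPBP1 to load CDC45, read 3.14 and 3.28, then 5.95 and 5.98, and ESCO2, which acetylates cohesin during S phase, read 2.77 and 3.04, then 6.48 and 6.58. Both were under the 25th percentile in normal glucose, so their rises were at least 6.40 and at least 9.48-fold. PCLAF, a PCNA-binding factor, rose by 14.2-fold and UBE2T, a ubiquitin-conjugating enzyme of the Fanconi pathway, by 4.07-fold. Apart from DBF4 and CCNE1, these were the 8 called genes of the list with the largest differences outside the complexes above.

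Of 14 genes that rebuild chromatin behind the fork, 8 were higher and 1 lower, with a median of 0.54, where 15.5% of all genes were higher and 22.2% lower. The greatest rises were those of UHRF1 (15.3-fold), which guides DNMT1 to newly made DNA, the histone chaperone ASF1B (7.44-fold), CHAF1A (2.60-fold), a subunit of the chromatin assembly factor that PCNA recruits, and DNMT1 itself (2.23-fold), the maintenance DNA methyltransferase. Of 12 translesion and repair polymerase genes, 3 were higher, 2 lower and 7 did not pass, with a median of 0.09. These shares lie near the 15.5% higher and 22.2% lower of all genes. POLQ, the polymerase of end joining, rose by 9.16-fold and POLH, the polymerase that passes ultraviolet damage, by 1.80-fold, whereas REV1 (-0.78) and POLL (-0.47) fell. Of 13 genes that replicate mitochondrial DNA, 1 rose, 6 fell and 6 missed the threshold, with a median of -0.31, beside the same background. TWNK, the mitochondrial helicase, fell by 1.29 on the log2 scale, TFB2M by 0.95 and POLG2 by 0.54, and MGME1, a mitochondrial exonuclease, rose by 0.93. The nuclear and mitochondrial lists therefore had medians of opposite sign, and the difference between lists was not tested.

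**Figure D5:**
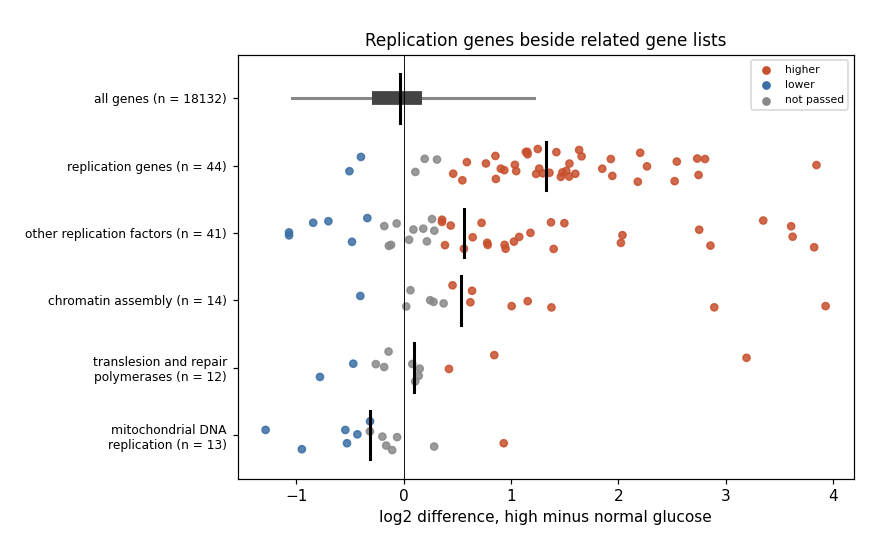
Log2 difference, high minus normal glucose (x axis), of each gene of the 44 and of 4 related lists, with points in red for higher, blue for lower and grey for not passed, and black bars for medians. For all 18132 genes the thick bar spans the middle 50% and the thin line the middle 90%. The medians are 1.33 for the 44 genes and -0.31 for mitochondrial DNA replication.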

How the data were processed

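UM1 cells from 2 glucose concentrations were measured on Affymetrix arrays, 2 arrays a group. Per the study's methods, the authors scanned the arrays with GCOS and pre-processed them by RMA (background correction, quantile normalization and summary of probes), and they deposited log2 expression values per probe set; versions and annotation were not given in the sources read. In the methods the array is U133 Plus 2.0, but the deposited probe set IDs are those of the PrimeView design, whose annotation was used. RMA brings all arrays to 1 distribution, so values are relative within an array and do not show a change in total RNA. The files hold no counts, and the number of arrays limits the precision.

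Of 49395 probe sets, 102 controls, 1832 of several genes and 2473 not in the annotation were left out, and 44988 of 1 gene remained (44961 matched by gene ID to current RefSeq symbols). Each of 18132 genes was read through its brightest probe set over the 4 arrays. High and normal glucose were compared with limma 3.58.1 (lmFit and eBayes, R 4.3.3) without covariates, and p-values were adjusted over all genes by the Benjamini-Hochberg method and called under 0.05. Intervals are 95% intervals of that fit. Where a gene did not exceed the 25th percentile of any array in a group, a fold is given as "at least", the mean of the other group against the higher of that percentile and the gene's own signal. Tables and figures were made with Python 3.11.15, pandas 2.3.3, numpy 2.4.6 and matplotlib 3.10.9, and the fit was tested on simulated data. Promoter sequences came from RefSeq (GRCh38.p14).

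All 44 genes are named, with the subunits that complete their complexes, the 8 other called replication factors with the largest absolute difference, and up to 4 called genes of each further list. DBF4 and CCNE1 are given beside DBF4B and CCNE2. The genes and lists were chosen with earlier results of these data known. Alternatives were the median over probe sets, removal of cross-hybridizing (_x_at) probe sets, a filter and a floor on low values, limma-trend with robust eBayes, median centring, further quantile normalization, a replicate block, the methods' t-test, a threshold of 0.01 and leaving out each array. Reading each probe set alone, and RFC5 through its 3 dimmer probe sets, was added after seeing the data. Some marker genes are not reported here.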

Additional observations from a re-analysis of the deposited data

How the results depend on the processing

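The count of replication genes that were higher, 39 of 44, lay between 36 and 40 under the median over probe sets, the removal of _x_at probe sets, the filter and the floor on low values, further quantile normalization, median centring, limma-trend, the replicate block, a threshold of 0.01 and the fits without 1 array. The last gave 36 to 38, and 36 of the 39 genes kept the call in all 4 of them. The filter and the removal of _x_at probe sets each left 42 of the 44 genes measured. The methods' t-test, which does not share the spread between genes, called 24 replication genes higher and 0 lower after adjustment, 13 of the other replication factors, 4 chromatin assembly genes and 1 translesion polymerase gene. Over all genes it called 1347 higher and 1667 lower, against 2808 and 4023 by limma. At an unadjusted p under 0.05, 38 replication genes were higher by the methods' t-test, and 39 higher and 2 lower by limma. The count of lower replication genes was the least steady: 1 under the median over probe sets, 1 under further quantile normalization, 0 at a threshold of 0.01 and 0 to 1 without 1 array. The 3 translesion polymerase genes that were higher fell to 1 at a threshold of 0.01 and to 1 to 2 without 1 array, with 1 left without either high glucose array. RFC5 turned to a rise of 1.08 under the median over probe sets and of 0.88, 1.27 and 0.92 by its 3 dimmer probe sets, since the brightest alone fell. Under the same median PRIM2 gained a call (0.31) and RFC4 lost one (0.36). With a replicate block, 39 replication genes were higher and 2 lower, and no call among the 44 changed. Replicate numbers did not pair the arrays (r = -0.0046 across 18132 genes between the within-group differences).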
